A study of Mus musculus with 28 samples.

Results

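The Pax family of transcription factors was followed through bulk RNA-seq of mouse neural stem cell lines and tissue cells. Its members were taken by name, *Pax1* to *Pax9*, and all 9 were rows of the count matrix of 28244 genes, measured in 28 samples of 11 groups. The study asked whether neural stem cells (NSCs) obtained outside the central nervous system, called peripheral NSCs (pNSCs), resemble brain NSCs, and whether they differ from neural crest stem cells (NCSCs). The first 5 groups, with 2 samples each, are brain NSCs, pNSCs of tail and of lung, and cells taken from those same tissues (tail cells and lung cells). Their labels name no reporter, and the study's description places them in the experiment with Nes-GFP mice, in which GFP is driven by *Nestin* regulatory elements and GFP+ adult lung or postnatal tail cells gave the pNSCs. The next 2 groups, with 3 samples each, are brain NSCs and postnatal lung pNSCs of Sox2-GFP knock-in mice, for which the same 2 samples of lung cells serve as the tissue control. The last 4 groups, also with 3 samples each, are brain NSCs, postnatal tail pNSCs and postnatal pNSCs of the dorsal root ganglion (DRG), all 3 from Wnt1Cre-mTmG mice, and DRG NCSCs, which the study obtained from adult wild-type mice. In Wnt1Cre-mTmG mice the Cre recombinase under *Wnt1* control turns on membrane GFP in neural crest cells and their progeny, while all other cells keep membrane Tomato, and *Wnt1* is also active in part of the midbrain. Brain NSCs came from adult or postnatal brain, and the labels do not say which for a given sample. The tail and DRG cells of these mice were plated unsorted, and the study describes the resulting pNSCs as Tomato+ and GFP-. The study also derived pNSCs from sorted GFP- cells, and the labels do not say which route gave the sequenced lines.

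The labels give C57BL/6 for every sample, and the methods also describe CD1 and mixed backgrounds for the mice of the study. A pNSC line grew from a single hand-picked cluster in defined NSC medium, so a group may stand for few founding cells. The study's figure legends call the samples of a group biological replicates. Whether these were separate lines, animals or cultures of 1 line is not given in the labels. The p-values below measure only the spread between these samples. With 2 or 3 samples a group, exact permutation of the samples for 1 gene could not reach 0.05, and every test below comes from a model fitted across all genes. In bulk RNA, fewer cells of a type and less RNA per cell cannot be told apart.

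Pax proteins bind DNA through the paired domain, and most also carry a homeodomain or part of one. The 4 subfamilies have distinct embryonic territories: *Pax1* and *Pax9* in the sclerotome and pharyngeal pouches, *Pax2*, *Pax5* and *Pax8* at the midbrain-hindbrain boundary, kidney, thyroid and B cells, *Pax3* and *Pax7* in the dorsal neural tube, neural crest and muscle precursors, and *Pax4* and *Pax6* in the pancreas, eye, forebrain and ventral neural tube. *Pax6* is widely used as a marker of NSCs, because radial glia and many cultured neural progenitors express it.

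Because the paired domain is conserved, the coding sequences of close relatives were compared first, as their identity sets how well short reads can be assigned. The longest identical stretches, all within the coding sequence of the longest coding transcript of GENCODE M21 on GRCm38, joined the following pairs and are shown in full.

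Pax2 and Pax8 (27 bases): ggcaggtactacgagactggcagcatc
Pax1 and Pax9 (26 bases): atcctggcgcgctacaacgagaccgg
Pax3 and Pax7 (26 bases): ctggaagtgtccacccctcttggcca

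The *Pax1* and *Pax9* run began at coding base 421 of *Pax1* and base 166 of *Pax9*, and the *Pax3* and *Pax7* run at base 79 of both. Every other pair shared 20 bases or fewer, and a read longer than these runs therefore holds at least 1 base that differs between the relatives. The read length is not given in the sources used here.

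The genes lie on 6 chromosomes (GRCm38). *Pax1* is at chromosome 2, 147361925 to 147393295, on the plus strand, *Pax6* at chromosome 2, 105668900 to 105697364, plus strand, and *Pax8* at chromosome 2, 24420560 to 24475599, minus strand. *Pax5* and *Pax7* are at chromosome 4, 44524757 to 44710487 and 139737062 to 139833528, both on the minus strand. *Pax3* is at chromosome 1, 78101267 to 78197134, minus strand, *Pax9* at chromosome 12, 56691767 to 56712822, plus strand, *Pax4* at chromosome 6, 28442334 to 28449353, minus strand, and *Pax2* at chromosome 19, 44756045 to 44837871, plus strand. Counts here are reads over the exons of each gene. Whether counting used the strand is not given in the sources used here, so reads of a gene and of an overlapping gene on the other strand may not have been separated. *Pax1* shares 183 exon bases with the antisense gene *AI646519* (60 counts over all samples), *Pax9* shares 189 with *Slc25a21* (57 counts), *Pax5* shares 636 with *5730488B01Rik* (14 counts), and *Pax6* shares none with *Pax6os1* (8 counts).

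The totals per sample ran from 9808246 to 22637031 counts. The Wnt1Cre-mTmG brain NSCs and DRG pNSCs were the shallowest, with at most 11431445, and every other sample had at least 16700710. Levels are given as cpm, counts per 1000000 in a library after TMM scaling over all 28 samples, folds are ratios of group mean cpm, and log2 differences with their SE are the estimates of edgeR. As the detection floor 3 counts were taken, which stood for 0.131 to 0.294 cpm. Replicates lay close together, with a chi-square per gene of 1.09 to 2.93 between pairs, except that replicate 3 of the DRG NCSCs stood at 18.1 and 22.7 from its partners. NSC markers (*Nes*, *Sox1*, *Sox2*, *Olig2*, *Hes5*, *Fabp7*) summed to 4309 to 6350 cpm in the 8 NSC and pNSC groups, and neural crest markers (*Sox10*, *Foxd3*, *Ngfr*) to 2276 to 2489 cpm in the DRG NCSCs against at most 15.9 in those 8 groups. No Pax gene was targeted in any group.

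Of the 9 genes, *Pax6*, *Pax3*, *Pax7*, *Pax9*, *Pax1* and *Pax5* reached 1 cpm in at least 1 group, and *Pax2*, *Pax4* and *Pax8* in none. *Pax6* made up 54.2% to 98.7% of all Pax counts, which are not scaled to exon length, in the 8 NSC and pNSC groups. It made up 0.554% in tail cells, 0.486% in lung cells and 5.25% in the DRG NCSCs. What differed among the stem cell groups was chiefly the accompanying set: *Pax3*, *Pax7* and *Pax9* were each above the floor in some NSC or pNSC groups and at or below it in others.

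**Figure D1:**
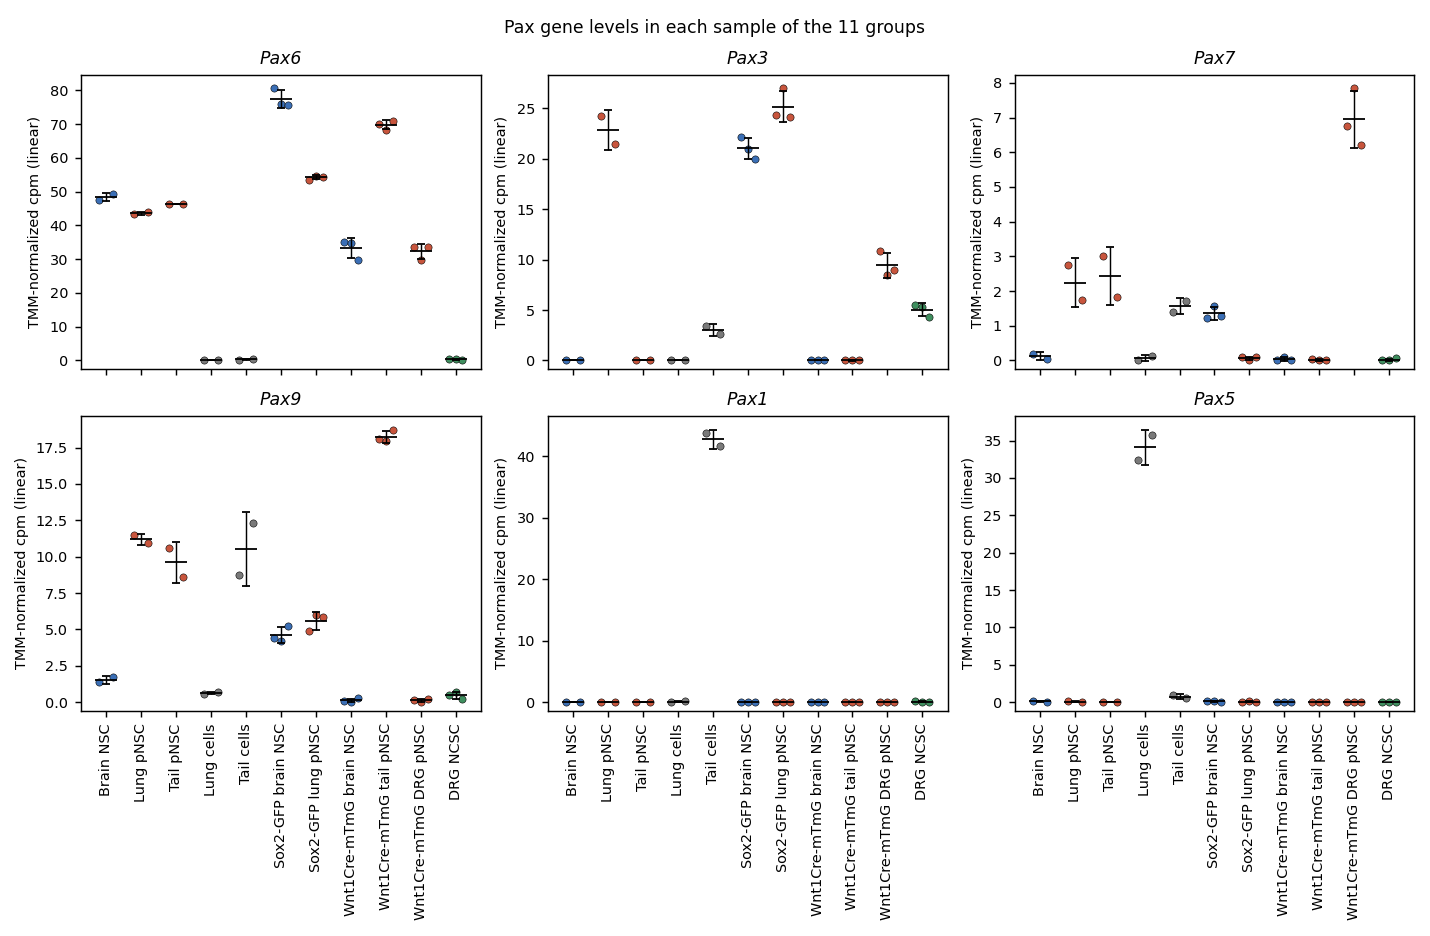
Level of 6 Pax genes in each of 28 samples (points, TMM-normalized cpm on a linear axis whose range differs between panels), with the group mean (bar) and SD (whiskers, n = 2 or 3). Brain NSCs are blue, pNSCs red, tissue cells grey and NCSCs green. *Pax6* is high in all 8 NSC and pNSC groups, *Pax1* in tail cells and *Pax5* in lung cells, while *Pax3*, *Pax7* and *Pax9* differ between NSC lines.

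*Pax6* specifies eye, forebrain and ventral neural tube identity and had the most counts of any member in all 8 NSC and pNSC groups. Per kilobase of exon, *Pax3* was level with it within the SD in lung pNSCs (3.69 ± 0.318 against 3.73 ± 0.0327). In the first experiment it stood at 47.5 and 49.2 cpm in brain NSCs, at 43.3 and 43.8 in lung pNSCs, and at 46.3 and 46.4 in tail pNSCs. The 3 groups lay within a narrow band, though their values did not overlap. The log2 difference from brain NSCs was -0.18 (SE 0.0698, edgeR adjusted p 0.0311) in lung pNSCs and -0.09 (SE 0.0697, adjusted p 0.321) in tail pNSCs, both well under the 2-fold limit. Tissue cells were at the other extreme, with 4 and 7 counts (0.223 and 0.447 cpm) in tail cells and 3 counts in each sample of lung cells. *Pax6* was 138.5-fold higher in tail pNSCs than in tail cells (log2 7.02, SE 0.188) and 254.5-fold higher in lung pNSCs than in lung cells (log2 7.87, SE 0.208). The latter ratio is taken to counts at the detection floor.

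In the Sox2-GFP experiment *Pax6* had 80.6, 75.9 and 75.7 cpm in brain NSCs and 53.5, 54.7 and 54.3 in lung pNSCs. All 3 lung pNSC samples lay below all 3 brain NSC samples. The difference was -0.49 on the log2 scale (SE 0.0379, adjusted p 6.62e-37), past the adjusted p but under 2-fold. In the Wnt1Cre-mTmG experiment the brain NSCs had 35.0, 34.9 and 29.8 cpm, the DRG pNSCs 33.6, 29.6 and 33.7, and the tail pNSCs 70.0, 68.3 and 70.9. The brain NSCs and DRG pNSCs overlapped (log2 difference -0.04, SE 0.0768, adjusted p 0.726), and the tail pNSCs stood apart from both. *Pax6* was 2.10-fold higher in these tail pNSCs than in the brain NSCs (log2 1.05, SE 0.0678, adjusted p 3.24e-10). That call sat at the limit: without replicate 3 of the brain NSCs the log2 difference was 0.98, and the gene no longer passed the 2-fold criterion. The DRG NCSCs, with 0.373, 0.381 and 0.176 cpm (8, 8 and 3 counts), were 107-fold below the brain NSCs (log2 -6.67, SE 0.154, adjusted p 4.96e-17). Tail pNSCs and DRG pNSCs of these mice exceeded the NCSCs by 7.72 (SE 0.133, adjusted p 7.23e-19) and 6.63 (SE 0.155, adjusted p 5.95e-17). Without NCSC replicate 3, which stood apart, these 3 differences were -6.43, 7.49 and 6.40.

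Ordered by group mean, *Pax6* fell from 77.4 ± 2.79 cpm (SD, n = 3) in Sox2-GFP brain NSCs through 69.8 ± 1.30 (n = 3) in Wnt1Cre-mTmG tail pNSCs, 54.2 ± 0.605 (n = 3) in Sox2-GFP lung pNSCs and 48.4 ± 1.24 (n = 2) in brain NSCs. It continued with 46.4 ± 0.0307 (n = 2) in tail pNSCs, 43.6 ± 0.383 (n = 2) in lung pNSCs, 33.3 ± 2.96 (n = 3) in Wnt1Cre-mTmG brain NSCs and 32.3 ± 2.32 (n = 3) in DRG pNSCs. The last pair overlapped, as did tail cells with DRG NCSCs and DRG NCSCs with lung cells at the bottom of the order. The 3 groups of brain NSCs thus spanned nearly the whole range seen among stem cell lines. *Pax4*, the other member of this subfamily and a factor of pancreatic beta and delta cells, had at most 3 counts in any sample and 21 in all 28.

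*Pax3* marks the dorsal neural tube and is needed for neural crest and migrating muscle precursors. It was present in some lines and missing from others of the same tissue. It had 24.2 and 21.5 cpm (512 and 383 counts) in lung pNSCs and no count in either brain NSC sample or either tail pNSC sample of that experiment. Lung pNSCs were therefore at least 152-fold above brain NSCs and at least 131.5-fold above tail pNSCs (edgeR adjusted p 2.49e-156 and 2.83e-149). Lung cells had no *Pax3* count, and tail cells had 3.46 and 2.62 cpm.

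The brain NSCs of Sox2-GFP mice, in contrast to those of the first experiment, had 22.1, 20.9 and 20.0 cpm of *Pax3*, and the Sox2-GFP lung pNSCs 24.3, 27.0 and 24.2. All 3 pNSC samples were above the brain NSC samples, by 0.29 on the log2 scale (SE 0.0626, adjusted p 1.15e-05), which is less than 2-fold. The Wnt1Cre-mTmG brain NSCs had no *Pax3* count in any sample, and the tail pNSCs of that experiment had 0, 2 and 0 counts. The DRG pNSCs had 10.8, 8.43 and 8.999 cpm, at least 32.6-fold above the brain NSCs (adjusted p 1.15e-09). The DRG NCSCs, the neural crest line, had 5.51, 5.34 and 4.29 cpm, all below the DRG pNSCs, from which they differed by 0.90 on the log2 scale (SE 0.16, adjusted p 9.07e-05), again under 2-fold, and by 0.81 without NCSC replicate 3. NCSCs were at least 17.4-fold above the brain NSCs (adjusted p 2.32e-09). Tail pNSCs were 302.5-fold below DRG pNSCs (counting interval 83.0 to 2509) and 163-fold below NCSCs (44.6 to 1348), ratios that rest on the 2 counts of tail pNSC replicate 2. The fitted log2 differences were -7.93 and -7.03, and -10.2 and -9.27 without that library.

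*Pax7*, the other dorsal neural tube and muscle stem cell member, had at most 80 counts in any sample, so that its levels rest on few reads. It had 52 and 36 counts (3.01 and 1.83 cpm) in tail pNSCs, 58 and 31 (2.75 and 1.74 cpm) in lung pNSCs, and 4 and 1 (0.201 and 0.0484 cpm) in brain NSCs. Both pNSC groups were above the brain NSCs and overlapped with each other. The log2 differences from brain NSCs were 4.18 (SE 0.531, adjusted p 2.63e-14) in tail pNSCs and 4.11 (SE 0.533, adjusted p 1.44e-13) in lung pNSCs. Their size depended on the brain library left out: 5.42 and 5.35 without replicate 1, and 3.50 and 3.43 without replicate 2. Tail cells, with 1.39 and 1.72 cpm, were below both tail pNSC samples, but the log2 difference of 0.52 (SE 0.329) had an adjusted p of 0.129.

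The direction was opposite in the Sox2-GFP experiment. Brain NSCs had 21, 36 and 22 *Pax7* counts (1.23, 1.57 and 1.28 cpm), and lung pNSCs 2, 0 and 2. The log2 difference was -4.33 (SE 0.513, adjusted p 1.07e-16), so that *Pax7* was lower in the pNSCs. In the Wnt1Cre-mTmG experiment the DRG pNSCs had the highest level of all groups, 6.76, 7.85 and 6.22 cpm, while brain NSCs, tail pNSCs and DRG NCSCs had at most 1 count a sample. The ratio of DRG pNSCs to brain NSCs was 232, with a 95% counting interval (exact Clopper-Pearson) of 41.2 to 9195 and an adjusted p of 9.43e-10. That interval covers counting error only, and the single brain NSC count came from replicate 2. The fitted log2 difference was 7.52 (SE 0.48), and 9.83 without that library. Against NCSCs the ratio was 412 (73.2 to 16340), with the single NCSC count in replicate 3, and the fitted difference of 8.14 (SE 0.432) was 9.77 without it.

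*Pax3* and *Pax7* were thus both present in lung pNSCs, DRG pNSCs, Sox2-GFP brain NSCs and tail cells. Tail pNSCs had *Pax7* without *Pax3*. Sox2-GFP lung pNSCs and DRG NCSCs had *Pax3* with at most 2 counts of *Pax7* in any sample. Skeletal muscle markers (*Myf5*, *Myod1*, *Myog*, *Acta1*, *Ckm*) summed to 170.7 to 173 cpm in tail cells, where all 5 had more than 3 counts. In the 9 NSC, pNSC and NCSC groups they summed to at most 0.380 cpm, and *Myf5* had no count in any of those samples. The melanocyte list (*Dct*, *Tyr*, *Pmel*, *Mlana*) summed to 152.8 to 158.3 cpm in tail cells and to at most 3.24 in those 9 groups. Markers of spinal GABAergic neurons (*Lbx1*, *Gad1*, *Gad2*, *Slc32a1*) summed to 16.8 to 19.1 cpm in lung pNSCs and 13.2 to 14.2 in Sox2-GFP lung pNSCs, against at most 7.62 in all other groups. That sum rests on *Gad1* (14.1 and 6.56 cpm) and *Lbx1* (3.70 and 7.16 cpm), while *Slc32a1* was at 0 and *Gad2* had at most 2 counts a sample in both groups, with 0.103 cpm against 0.198 in brain NSCs and 0.0459 against 0.392 in Sox2-GFP brain NSCs. The part of these cells in the *Pax3* and *Pax7* levels was not tested.

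**Figure D2:**
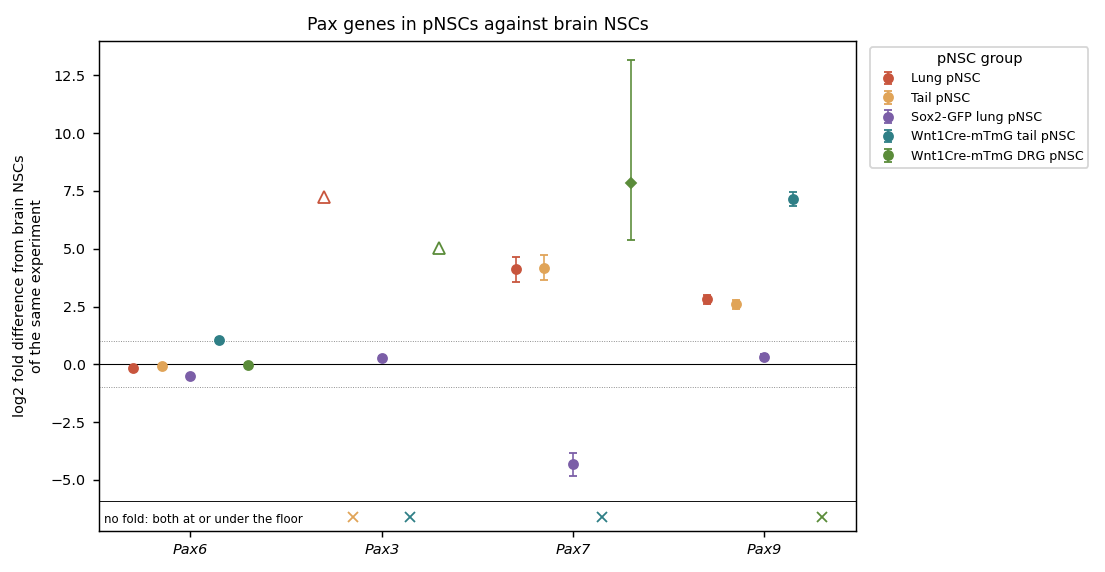
Log2 fold difference of 4 Pax genes between each pNSC group and the brain NSCs of its own experiment. Circles are edgeR estimates with SE, open triangles are lower bounds against 3 counts where brain NSCs had none, the diamond is a ratio of counts with its 95% counting interval, and crosses mark genes at or under the floor in both groups. Dotted lines mark 2-fold. *Pax6* stays near 0 except at 1.05 in Wnt1Cre-mTmG tail pNSCs, and *Pax7* is raised in 3 groups and lower, at -4.33, in Sox2-GFP lung pNSCs.

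*Pax9* acts in the sclerotome, palate, teeth and pharyngeal pouches. Per kilobase of exon it was the second member after *Pax6* in both groups of tail pNSCs and in brain NSCs of the first experiment. In the first experiment it had 10.6 and 8.61 cpm in tail pNSCs, 11.5 and 10.9 in lung pNSCs and 1.35 and 1.74 in brain NSCs. Both pNSC groups lay above the brain NSCs with no overlap. *Pax9* was 6.21-fold higher in tail pNSCs (log2 2.59, SE 0.202, adjusted p 2.3e-36) and 7.24-fold higher in lung pNSCs (log2 2.82, SE 0.195, adjusted p 4.78e-46). Tail cells had 8.70 and 12.3 cpm and overlapped with the tail pNSCs (log2 -0.23, SE 0.144, adjusted p 0.131). Lung cells had 0.584 and 0.671 cpm, 17.8-fold less than lung pNSCs (log2 4.08, SE 0.248, adjusted p 1.81e-60).

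The Wnt1Cre-mTmG tail pNSCs had the highest *Pax9* level of all groups, 18.1, 17.97 and 18.7 cpm. Brain NSCs (1, 0 and 3 counts) and DRG pNSCs (2, 0 and 2 counts) of the same mice were at or under the floor. The log2 difference between tail pNSCs and brain NSCs was 7.15 (SE 0.299, adjusted p 9.15e-13), and 8.38 without replicate 3 of the brain NSCs, which held 3 of the 4 counts. DRG NCSCs had 0.467, 0.667 and 0.235 cpm (10, 14 and 4 counts). Their differences from brain NSCs (log2 1.91, adjusted p 0.0165) and from DRG pNSCs (log2 -1.86 for DRG pNSCs minus NCSCs, adjusted p 0.0187) were called, but the adjusted p rose above 0.05 when 1 of several libraries was left out. For the brain NSCs these were NCSC replicate 2 (0.0637) and brain NSC replicates 1 (0.0577) and 2 (0.0711), and the difference grew to 3.14 without brain NSC replicate 3. For the DRG pNSCs they were NCSC replicate 2 (0.0704) and DRG pNSC replicate 2 (0.0808). In Sox2-GFP mice *Pax9* had 4.38, 4.22 and 5.22 cpm in brain NSCs and 4.90, 6.00 and 5.85 in lung pNSCs, which overlapped (log2 0.31, SE 0.132, adjusted p 0.0279).

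*Pax1*, the close relative of *Pax9* and a regulator of vertebral column formation, was present only in tail cells among the 11 groups. It had 786 and 653 counts there (43.9 and 41.7 cpm) and at most 3 counts in each of the other 26 samples. Tail cells were at least 246-fold above tail pNSCs, which had none (adjusted p 6.1e-268), and 503-fold above lung cells with a counting interval of 172 to 2442. The latter was 8.90 on the log2 scale (SE 0.264), and 9.52 without lung cell replicate 2. Tail pNSCs and tail cells thus shared similar levels of *Pax9*, while *Pax1* was at 0 in the pNSCs. Cartilage markers (*Col2a1*, *Acan*, *Matn1*, *Nkx3-2*) summed to 44310 to 45190 cpm in tail cells, with all 4 above 3 counts. In tail pNSCs they summed to 0.204 to 0.464 cpm with *Matn1* and *Nkx3-2* at 0, and in Wnt1Cre-mTmG tail pNSCs to 0.558 to 0.931 with *Matn1* at 0. Fibroblast markers (*Col1a1*, *Col1a2*, *Col3a1*, *Dcn*, *Lum*) summed to 375.5 to 387.9 cpm in the Wnt1Cre-mTmG tail pNSCs, the group with the highest *Pax9*, against at most 17.0 in the other 7 NSC and pNSC groups. Their part in the *Pax9* level was not tested.

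*Pax5*, which maintains B cell identity and also acts at the midbrain-hindbrain boundary, had 611 and 586 counts (32.4 and 35.8 cpm) in lung cells. Tail cells had 17 and 8 counts, and no other sample had more than 3. Lung cells were 46.7-fold above tail cells (log2 of tail minus lung -5.47, SE 0.2, adjusted p 9.41e-164) and 662-fold above lung pNSCs, with a counting interval of 183 to 5471. Both lung pNSC counts came from replicate 1, and the fitted log2 difference of -9.26 (SE 0.292) was -12.3 without it and -8.45 without replicate 2. The B cell list (*Cd79a*, *Cd79b*, *Ms4a1*) moved the same way, with sums of 134.8 to 135.6 cpm in lung cells, 2.79 to 3.45 in tail cells and at most 0.387 elsewhere. Its part in the *Pax5* level was not tested. *Pax2* and *Pax8*, which act in kidney, thyroid and the midbrain-hindbrain boundary, were near the limit of detection, with 3 and 45 counts in all 28 samples. *Pax8* had its highest level in Wnt1Cre-mTmG brain NSCs, at 5, 2 and 3 counts, and was not among the genes tested.

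**Figure D3:**
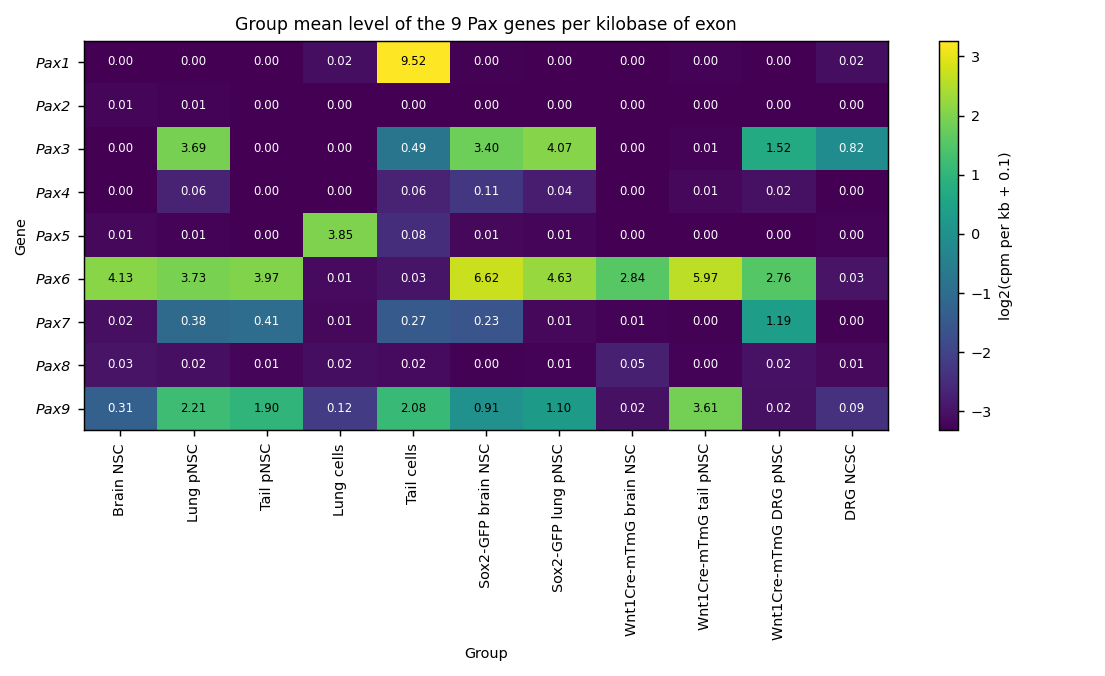
Group mean of each Pax gene in cpm per kilobase of exon (numbers, rounded to 2 decimals so that 0.00 can stand for a few reads), coloured on a log2 scale after adding 0.1. Levels can be compared between genes only on this scale. *Pax6* leads the 8 NSC and pNSC columns, with *Pax3* close to it in lung pNSCs, while *Pax1* leads tail cells, *Pax5* lung cells and *Pax3* the DRG NCSCs.

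Per kilobase of exon, *Pax3* came close to *Pax6* in lung pNSCs, with 3.69 ± 0.318 against 3.73 ± 0.0327 cpm per kb (SD, n = 2). In Sox2-GFP lung pNSCs they were at 4.07 ± 0.255 and 4.63 ± 0.0518 (n = 3). *Pax9* at 3.61 ± 0.0818 was the second member of Wnt1Cre-mTmG tail pNSCs, below *Pax6* at 5.97 ± 0.111 (n = 3). In tail cells *Pax1* at 9.52 ± 0.347 led *Pax9* at 2.08 ± 0.504 (n = 2). The summed level of all 9 genes in cpm was highest in Sox2-GFP brain NSCs, at 104.7, and lowest in the DRG NCSCs, at 6.02.

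Counts of members past both thresholds (adjusted p under 0.05 and at least 2-fold) were read beside the share of all tested genes that passed them. Against brain NSCs, 2 of 6 tested members passed in tail pNSCs, both higher, where 10.9% of all genes did, and 3 of 6 in lung pNSCs, all higher, where 8.71% did. Between tail and lung pNSCs, *Pax3* alone of 6 passed, lower in tail pNSCs (12.9% of genes). In the Wnt1Cre-mTmG experiment, 2 of 4 members were higher in tail pNSCs than in brain NSCs (18.2% of genes), and 2 of 4 higher in DRG pNSCs (9.53%). All 4 differed between tail and DRG pNSCs (18.0%), with *Pax6* and *Pax9* higher and *Pax3* and *Pax7* lower in the tail line. In Sox2-GFP lung pNSCs, 1 of 5 members, *Pax7*, passed against brain NSCs, and it was lower (15.7%). With 4 to 6 members tested in a comparison, these shares rest on very few genes. Some tested members passed the count filter only through another group. *Pax1* had no count in brain NSCs, tail pNSCs or lung pNSCs of the first experiment, and *Pax3* none in its brain NSCs and tail pNSCs. *Pax5* had at most 3 counts a sample in these groups and at most 2 in the Sox2-GFP groups. A member without a count in either group compared could not pass. In the Wnt1Cre-mTmG experiment, *Pax7* passed the filter only through DRG pNSCs (at least 65 counts a sample, at most 1 elsewhere). *Pax9* passed it only through tail pNSCs (at least 369, at most 14 elsewhere). Being high in that group was thus a condition of testing them, and such calls are not independent of the filter. *Pax3* had at most 2 counts a sample in the brain NSCs and tail pNSCs of these mice. The same filter applied to all genes.

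Comparisons with tissue cells and NCSCs had a high background. In tail pNSCs against tail cells, 1 of 6 members was higher and 3 were lower, where 46.7% of all genes passed. In lung pNSCs against lung cells, 4 were higher and 1 lower of 6 (55.0%), and in Sox2-GFP lung pNSCs against the same lung cells, 3 were higher and 1 lower of 5 (56.3%). Between tail and lung cells 5 of 6 passed (43.4%). *Pax1* passed the count filter only through tail cells and *Pax5* only through lung cells. A high level in those cells was thus a condition of testing them, and their calls against those cells are not independent of the filter. Against DRG NCSCs, 3 of 4 passed in tail pNSCs (37.9%) and in DRG pNSCs (38.3%), as did 3 of 4 between DRG NCSCs and brain NSCs (36.9%).

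The same tissue gave pNSCs in more than 1 experiment, and the difference of the 2 differences from brain NSCs was tested in 1 fit over all 28 samples. In both tests *Pax1* and *Pax5* had at most 3 counts in each sample of the groups compared, and for tail pNSCs so did *Pax3*. For tail pNSCs, 2 of 6 members passed (16.0% of genes). The *Pax6* difference in the first experiment minus that in the Wnt1Cre-mTmG mice was -1.14 on the log2 scale (SE 0.0854, adjusted p 3.95e-14), and for *Pax9* it was -4.56 (SE 0.561, adjusted p 9.55e-09), or -5.80 without replicate 3 of the Wnt1Cre-mTmG brain NSCs. For lung pNSCs, 3 of 6 members passed (14.1% of genes), and the difference in the first experiment minus that in the Sox2-GFP mice was positive for all 3. For *Pax7* the 2 differences had opposite signs (4.11 and -4.33). They were *Pax3* (adjusted p 1.26e-19), *Pax7* (log2 8.43, SE 0.753, adjusted p 4.42e-12, between 7.77 and 9.69 without 1 or the other brain NSC library) and *Pax9* (log2 2.52, SE 0.26, adjusted p 1.68e-10). For *Pax3* no fold is given, since the brain NSCs of the first experiment had no count. The experiments differ in mouse line, sorting and, for the lung, age, and these cannot be told apart from one another. For *Pax3* the mean was 22.9 and 25.2 cpm in the lung pNSCs of the first and the Sox2-GFP experiment, and 0 and 21.02 cpm in the brain NSCs.

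In vertebrate organ primordia Pax factors act in a network with homeodomain proteins of the sine oculis class (here *Six2* to *Six6*), their Eya coactivators and the Dach corepressors. Of 11 such genes, 10 were tested in the first experiment. In lung pNSCs 5 were higher and 1 lower than in brain NSCs, where 8.71% of all genes passed, with a median log2 difference of 0.76 against 0 over all genes. *Six4* rose from 2.16 to 7.38 cpm (log2 1.74, SE 0.197, adjusted p 1.94e-17), and *Eya2* fell (log2 -2.90, SE 0.161, adjusted p 2.28e-70). In tail pNSCs 2 were higher and 4 lower (median 0.06, 10.9% of all genes), with *Six3* falling from 1.53 to 0 cpm and *Eya2* rising (log2 1.91, SE 0.0843, adjusted p 1.43e-111), opposite to lung pNSCs. *Six3*, a forebrain and eye gene, was higher in lung pNSCs (3.40 against 1.53 cpm, log2 1.12, SE 0.301, adjusted p 0.000831). It was lower in Wnt1Cre-mTmG tail pNSCs and DRG pNSCs (62.4 cpm in the brain NSCs, at or near 0 in both pNSCs) and in Sox2-GFP lung pNSCs (log2 -5.32, SE 0.219, adjusted p 6.01e-129). Of 9 tested in those experiments, 0 were higher and 4 lower in tail pNSCs (median -0.38, 18.2% of all genes), 1 higher and 3 lower in DRG pNSCs (median -0.34, 9.53%), and 0 higher and 3 lower in Sox2-GFP lung pNSCs (median -0.25, 15.7%).

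**Figure D4:**
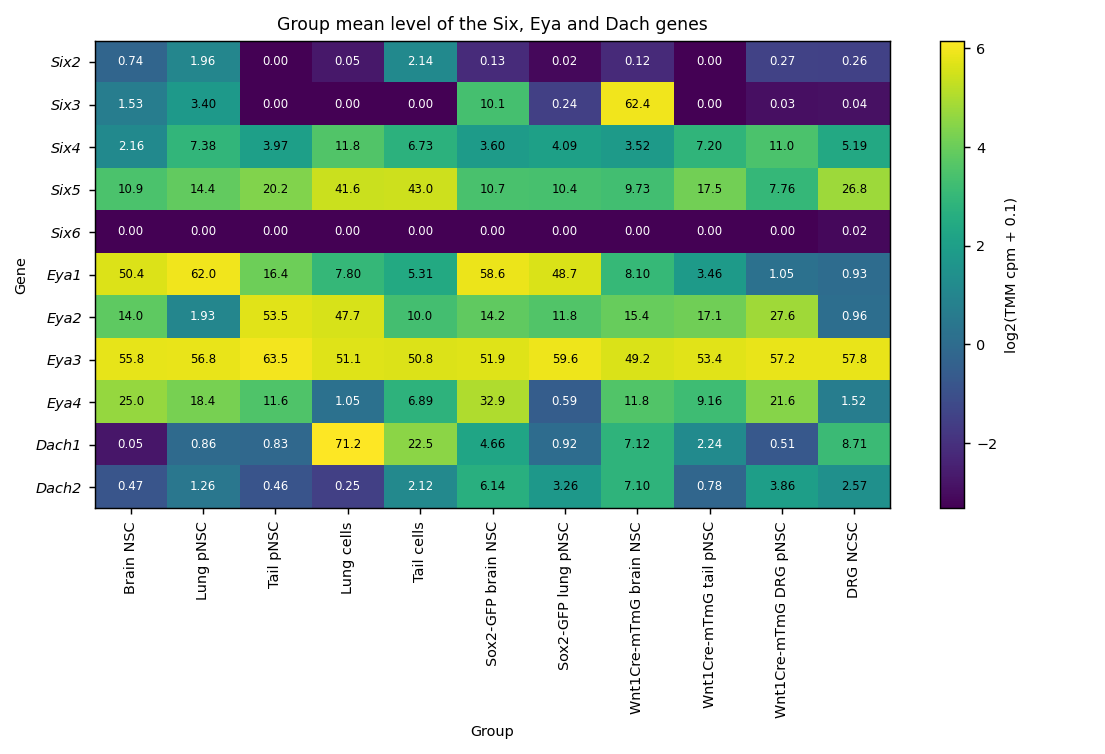
Group mean in TMM-normalized cpm (numbers, rounded) of *Six2* to *Six6*, *Eya1* to *Eya4*, *Dach1* and *Dach2*, coloured on a log2 scale after adding 0.1. Values compare groups within a gene. *Eya3* varies little, *Six6* is at or near 0 throughout, and *Six3* is at 62.4 cpm in Wnt1Cre-mTmG brain NSCs and at most 0.243 cpm in 4 of the 5 pNSC groups.

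The adaptor proteins *Paxip1* and *Paxbp1*, which link Pax factors to histone methyltransferases, were expressed in every group. Neither passed both thresholds in any of the 5 comparisons of pNSCs with brain NSCs. *Paxip1* differed most in Sox2-GFP lung pNSCs, at 79.9 ± 1.16 cpm against 43.7 ± 1.34 in brain NSCs (log2 0.90, SE 0.0388, adjusted p 6.53e-117), which is under 2-fold.

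Textbook target genes of the family were listed by factor, 11 in all. Against brain NSCs, 0 were higher and 3 lower of 11 tested in tail pNSCs (median log2 difference -0.33, 10.9% of all genes), and 2 higher and 0 lower in lung pNSCs (median 0.18, 8.71%). In Wnt1Cre-mTmG mice 4 were higher and 3 lower of 8 in tail pNSCs (median 0.55, 18.2%), and 1 higher and 1 lower in DRG pNSCs (median -0.06, 9.53%). In Sox2-GFP lung pNSCs 3 were higher and 3 lower of 9 (median 0.65, 15.7%). *Nkx3-2*, a sclerotome target of *Pax1* and *Pax9*, had 7.80 cpm in tail cells, where both factors were present, and no count in tail pNSCs, where *Pax9* was present without *Pax1*. It also had 3.05 cpm in lung pNSCs, 3.00 in Sox2-GFP lung pNSCs and 2.07 in brain NSCs, all without *Pax1*, and 2.99 in DRG pNSCs, where both factors were at or under the floor. *Neurog2*, a proneural target of *Pax6*, was higher in Wnt1Cre-mTmG tail pNSCs than in brain NSCs (4.14 ± 0.246 against 0.184 ± 0.103 cpm, n = 3, log2 4.45, SE 0.329, adjusted p 9.84e-09). In the other 4 pNSC groups *Neurog2* did not pass. *En2*, a midbrain-hindbrain target of *Pax2* and *Pax5*, reached 58.2 cpm in lung pNSCs and 58.1 in Sox2-GFP lung pNSCs (log2 1.53 and 1.87 above brain NSCs, SE 0.0832 and 0.0541), although *Pax2* had at most 1 count in these samples and *Pax5* at most 2. *En2* was lower than in brain NSCs in the other 3 pNSC groups, by -5.35 (SE 0.209) in tail pNSCs, -3.51 (SE 0.216) in Wnt1Cre-mTmG tail pNSCs and -1.98 (SE 0.206) in DRG pNSCs. *Myf5*, a muscle target of *Pax3*, had no count in any NSC, pNSC or NCSC sample, those with *Pax3* included. *Cd79a*, a B cell target of *Pax5*, had 43.1 cpm in lung cells.

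The genes whose pattern over the 11 group means of log2(cpm + 1) was most like that of each member were found among 16570 genes with at least 1 cpm in some group. For *Pax6* they were *Hrh1* (Pearson r 0.995), *Hes5* (0.990) and *Fut9* (0.990), all at or above 17.3 cpm in the NSC and pNSC groups and at most 1.06 in tissue cells and NCSCs. For *Pax3* they were *Kcnh5* (0.866), *Grik1* (0.859) and *Folh1* (0.839), for *Pax7* *2510046G10Rik* (0.824), *Hoxa6* (0.789) and *Tbx18* (0.761), and for *Pax9* *Zfp609* (0.917), *Ints6* (0.899) and *Cbln3* (0.852). Some of these genes were low throughout. *2510046G10Rik* lay between 0.408 ± 0.0692 cpm (SD) in DRG NCSCs and 1.14 ± 0.183 in DRG pNSCs, with an SD of up to 0.519 in a group. *Kcnh5* reached 3.07 cpm and *Cbln3* 2.77 cpm at most. *Zfp609* (75.1 to 177 cpm) and *Ints6* (34.2 to 54.9 cpm) were expressed in every group over a narrow range, while *Pax9* ran from 0.114 to 18.3 cpm. *Hoxa6* shared the high level of *Pax7* in DRG pNSCs, at 33.7 cpm, but had 3.46 in tail cells, above both tail and lung pNSCs. For *Pax1* (*Krt17*, *Stfa1*, *Rnf222*) and *Pax5* (*Cd3d*, *Ubash3a*, *Tctex1d4*) the coefficients of nearly 1 rest on 1 group, tail cells or lung cells. These are descriptions over 11 points that share libraries within each experiment.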

How the data were processed

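PolyA-selected RNA of 28 samples was sequenced single-end on a NextSeq500. Per the labels and the study's methods, the authors aligned reads to GRCm38 with HISAT2, used Cufflinks and HTSeq, and deposited raw counts per gene, with no normalization. The annotation release, the strand setting and the counting mode are not given in the sources used here. Groups and replicate numbers came from the labels.

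For each of 3 experiments, low genes were dropped by filterByExpr at min.count 10 and min.total.count 15, and the rest scaled by TMM, a trimmed mean of log ratios between libraries, and fitted over all groups with edgeR 4.0.16 (quasi-likelihood, two-sided, R 4.3.3), giving 16948, 14448 and 16234 genes, and 17393 for the 2 differences of differences over 28 samples. P-values were adjusted by Benjamini-Hochberg over all genes tested in each of 14 comparisons. Members were called at an adjusted p under 0.05 and at least 2-fold. A fold against a group without counts was taken against 3 counts per library, and with 1 to 3 counts summed over the lower group an exact 95% interval is given. Where a p was too small to print, the SE stands alone. Gene models and coding sequences came from GENCODE M21. The genes named are the 9 members, genes overlapping them, fixed related lists and markers, and the 3 genes most like each member by Pearson r. The members and lists were chosen with earlier results of these data known. A few genes of those lists are not reported here. The pipeline was tested on simulated data. Alternatives were DESeq2 1.42.0, upper-quartile scaling, no filter, only the groups compared, no fold limit, a replicate block, leaving out each sample, library size alone for levels, and Pearson r over samples.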

Additional observations from a re-analysis of the deposited data

Results flagged for a closer look

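In 5 cases the difference between pNSCs and brain NSCs of 1 experiment differed from that of another in the edgeR test of the difference itself. For tail pNSCs these were *Pax6* (adjusted p 3.95e-14, with 46.4 against 48.4 cpm in the first experiment and 69.8 against 33.3 in Wnt1Cre-mTmG mice, pNSCs first) and *Pax9* (adjusted p 9.55e-09, with 9.60 against 1.55 cpm and 18.3 against 0.114). For lung pNSCs they were *Pax3* (adjusted p 1.26e-19, with 22.9 against 0 cpm in the first experiment and 25.2 against 21.02 in Sox2-GFP mice), *Pax7* (adjusted p 4.42e-12, with 2.24 against 0.124 cpm and 0.0610 against 1.36) and *Pax9* (adjusted p 1.68e-10, with 11.2 against 1.55 cpm and 5.58 against 4.61). Mouse line, sorting and experiment changed together and cannot be told apart. Groups of 2 or 3 samples are too small for a test of single outlying samples.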

How the results depend on the processing

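Of the 16 counts of members called, 14 stayed within 1.5 times their value under every alternative run. The exceptions were Sox2-GFP lung pNSCs against brain NSCs, where 1 member became 4 with no limit on the fold change, and Wnt1Cre-mTmG tail pNSCs against brain NSCs, where leaving out 1 sample gave 1 to 2. Reversed signs occurred only in differences that were not called: *Pax7* between tail and lung pNSCs (-0.30 without tail pNSC replicate 1, -0.20 without lung pNSC replicate 2, range -0.304 to 0.462), *Pax9* between tail pNSCs and tail cells (0.0316 without tail cell replicate 2, lowest -0.465) and *Pax6* between DRG pNSCs and brain NSCs (0.0182 without DRG pNSC replicate 2, lowest -0.113). With DESeq2 the difference of differences for *Pax7* in tail pNSCs also passed (log2 5.22, adjusted p 0.0105). Same-numbered samples correlated between -0.0194 and 0.031, and the replicate block changed no call of a member. With 2 or 3 samples a group, this check cannot exclude pairing. The study states that in most cases brain NSCs of the same mice were the control for pNSCs, and the labels name no animal. The genes most like *Pax1* and *Pax5* shared 0 of 3 names when r was taken over 28 samples. Levels by library size alone were 0.908 to 1.05 times the TMM levels. Depth limits *Pax2*, *Pax4* and *Pax8*, with at most 5 counts in a sample. Differences of *Pax7* rest on under 100 counts per library.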
